A study of Mus musculus with 192 samples.

Results

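Accessible chromatin windows were examined at 9 mouse genes, the C/EBP transcription factor genes Cebpa, Cebpb, Cebpd, Cebpe and Cebpg and the myeloid genes Csf1r, Lyz2, Csf3r and Mpo. A window was taken when it overlapped the gene body or the 50 kb on either side (GENCODE vM1 gene models, mouse build mm9), which gave 48 of the 50000 windows deposited. Each window is 500 bp long, centred on a peak summit, and carries a position and a peak name with no score or count. Windows were split into those within 1 kb of a transcript start of any protein-coding or long non-coding gene (23 windows) and the others (25 windows). Of the windows at a start, 10 lay at the start of a member itself and 13 at the start of a neighbouring gene. The shared flank of Cebpa and Cebpg, whose starts lie 62.8 kb apart, held 2 windows that were counted once in these totals.

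The study measured open chromatin with transposase in single cells whose surface proteins were recorded during sorting (Pi-ATAC). The mixed populations were 4T1, a murine mammary carcinoma line that was sorted by its epithelial protein EpCAM, and splenocytes, sorted by the leukocyte protein CD45 and taken from a single spleen of a transgenic MMTV-PyMT mouse that carried no tumour then, after red cells had been lysed. The MMTV promoter drives the PyMT oncogene mainly in mammary epithelium, the mixture was fixed with formaldehyde before transposition in bulk, and titles give 96 cells in each group, whereas source names give 95 and 97. Per the methods, summits were called after merging cells that shared one condition, but every peak name contains the label Cell_line_All, which was taken here to mean both groups together, and the sources do not resolve this. On either reading the list is 1 sample, so every value below belongs to 1 sample without replicates, no difference between 4T1 cells and splenocytes could be tested, and a window cannot be assigned to either group.

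C/EBP proteins are leucine-zipper factors that bind DNA as dimers, with one another or with related ATF factors. C/EBPα is required to make granulocyte progenitors, C/EBPβ acts in macrophages, inflammation and the mammary epithelium, C/EBPδ is induced in acute-phase responses, C/EBPε completes neutrophil granule formation, and C/EBPγ lacks an activation domain and pairs with the others. Together with the ETS factor PU.1 they control the genes for the receptors of M-CSF (Csf1r) and G-CSF (Csf3r), for lysozyme (Lyz2) and for myeloperoxidase (Mpo).

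Sequences from own-start windows of the C/EBP genes are shown first, because these 5 genes had such a window and the myeloid genes lacked one. For each gene the stretch is taken from the window whose summit lay nearest to an own start, is read along the strand of the gene from the genome of build mm9, and overlaps no annotated exon. Cebpa, Cebpb and Cebpd are on the plus strand and Cebpe and Cebpg on the minus strand. Capitals mark TATAAA in Cebpa, the PU.1 word GAGGAAGT in Cebpe, and the reverse complement of CCAAT, the site of the factor NF-Y, in Cebpg. No C/EBP word (TTGCNNAA on either strand) lies in any of these stretches.
Cebpa chr7:35904012-35904311: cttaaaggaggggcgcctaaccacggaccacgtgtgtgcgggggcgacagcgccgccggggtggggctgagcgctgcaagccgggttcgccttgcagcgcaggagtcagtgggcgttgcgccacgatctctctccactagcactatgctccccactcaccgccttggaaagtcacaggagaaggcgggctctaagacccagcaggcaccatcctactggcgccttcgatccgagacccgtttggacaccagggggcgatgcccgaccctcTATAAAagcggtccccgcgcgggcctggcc
Cebpb chr2:167514157-167514414: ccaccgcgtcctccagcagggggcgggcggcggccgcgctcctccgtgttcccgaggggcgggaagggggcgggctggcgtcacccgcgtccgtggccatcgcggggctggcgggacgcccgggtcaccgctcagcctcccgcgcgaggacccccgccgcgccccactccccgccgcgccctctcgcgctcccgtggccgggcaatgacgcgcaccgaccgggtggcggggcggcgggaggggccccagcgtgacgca
Cebpd chr16:15887079-15887378: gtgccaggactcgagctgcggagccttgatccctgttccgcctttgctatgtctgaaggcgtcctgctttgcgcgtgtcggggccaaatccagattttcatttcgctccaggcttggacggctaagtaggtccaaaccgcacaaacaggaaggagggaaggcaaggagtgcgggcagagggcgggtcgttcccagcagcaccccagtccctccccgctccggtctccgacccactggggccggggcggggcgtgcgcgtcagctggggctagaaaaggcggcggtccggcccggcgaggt
Cebpe chr14:55331761-55332060: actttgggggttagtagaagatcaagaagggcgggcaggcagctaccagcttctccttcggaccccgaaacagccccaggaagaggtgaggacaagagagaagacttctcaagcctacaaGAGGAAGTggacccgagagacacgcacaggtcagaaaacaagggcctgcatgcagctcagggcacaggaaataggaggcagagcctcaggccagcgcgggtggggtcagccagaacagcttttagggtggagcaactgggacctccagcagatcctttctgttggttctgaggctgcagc
Cebpg chr7:35841586-35841885: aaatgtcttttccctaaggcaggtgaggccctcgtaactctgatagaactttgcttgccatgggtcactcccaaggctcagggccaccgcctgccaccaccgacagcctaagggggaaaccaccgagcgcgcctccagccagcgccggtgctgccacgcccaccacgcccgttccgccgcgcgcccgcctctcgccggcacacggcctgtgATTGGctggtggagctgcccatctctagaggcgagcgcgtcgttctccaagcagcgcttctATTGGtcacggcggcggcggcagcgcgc

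The stretches of Cebpa, Cebpb, Cebpd and Cebpg are rich in CpG dinucleotides, whereas that of Cebpe holds few. The Cebpe stretch lies farther from its start than the others, around a summit 1000 bp upstream, so it is not a like comparison. The TATAAA of Cebpa began 30 bp before the start, a word that 2.75% of protein-coding genes hold in the 40 bases before their start and that none of the other 8 members held there. Cebpg held CCAAT at 2 places, with first bases 152 and 91 bp before the start, and 30.6% of protein-coding genes hold this word in the 200 bases before their start. Both words were chosen after the sequences had been seen.

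The window 6.62 kb upstream of Csf3r is shown next because it held the densest group of C/EBP words at these genes. The same 8 letters, TTGCACAA, occurred 3 times, with 33 and 16 bp between successive first bases, and a PU.1 word lay further along the window. Both stretches are on the plus strand, in intergenic sequence, with the C/EBP words and the PU.1 word in capitals.
Csf3r chr4:125695028-125695136: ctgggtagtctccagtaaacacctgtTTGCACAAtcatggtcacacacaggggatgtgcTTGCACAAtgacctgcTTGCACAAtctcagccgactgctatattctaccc
Csf3r chr4:125695349-125695408: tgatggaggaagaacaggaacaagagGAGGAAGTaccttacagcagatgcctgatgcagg

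The middles of the C/EBP words of this Csf3r window lay 111, 78 and 62 bp before the summit and that of the PU.1 word 210 bp after it, and positions of words given below are likewise those of their middles. Of all 50000 windows, 73 (0.146%) held 3 or more C/EBP words, 6 held as many together with a PU.1 word, and 1, this window, held 3 or more copies of TTGCACAA on either strand. Windows with at least 1 C/EBP word and a PU.1 word made up 0.734% of the list, and of the 48 member windows the one at Csf3r was the single case. The counts of repeated words were made after the sequence had been seen, and a match is a run of letters, not a measured binding site.

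All 5 C/EBP genes had a window within 1 kb of their own start and none of the 4 myeloid genes did. Across 22350 protein-coding genes 48.1% had such a window. The 5 C/EBP genes held all 10 of the own-start windows. Cebpd had 4, Cebpa and Cebpg 2 each, and Cebpb and Cebpe 1 each. At least 2 own-start windows were present in 24.4% of protein-coding genes and at least 4 in 3.33%. Windows that overlap or share a call were counted separately, at the members and at all genes.

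**Figure D1:**
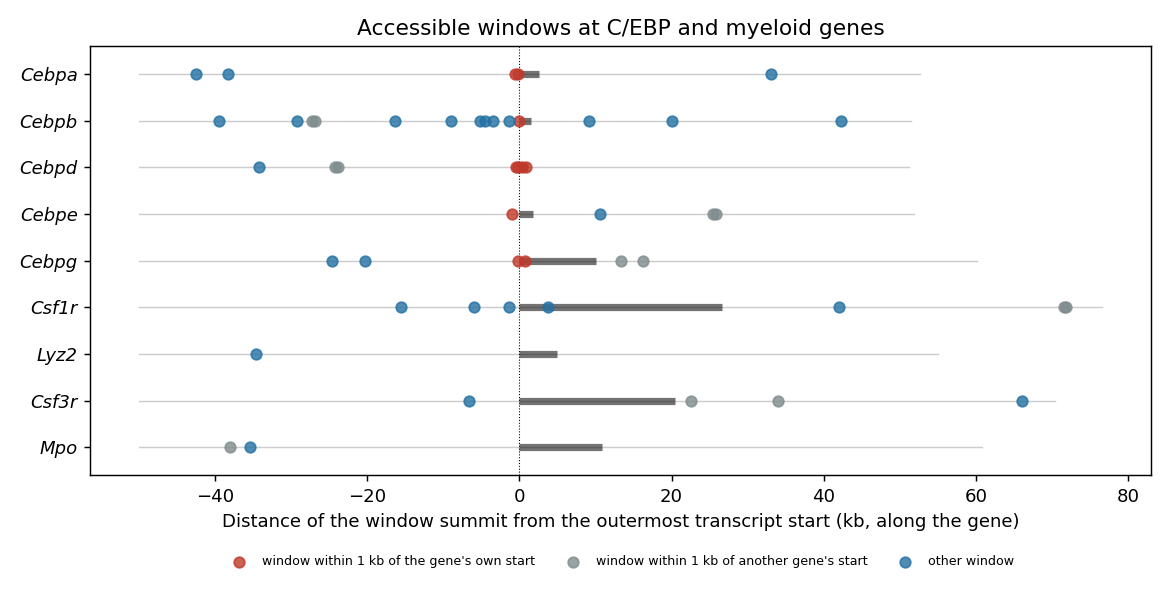
Each point is 1 window, placed by the distance of its summit from the outermost transcript start along the gene (x axis, kb), with 1 row per gene, gene bodies as dark bars and the searched region as a thin line. Windows at an own start (red) appear in the 5 C/EBP rows and in none of the 4 myeloid rows, and Cebpb has the most windows, 14.

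Cebpa, the gene for the factor that opens the granulocyte program (chr7:35904312-35906945, plus strand), had 5 windows. Both own-start windows came from 1 peak call with summits 517 and 224 bp upstream of the start, 293 bp apart. The remaining 3 windows were intergenic, 42.5 and 38.2 kb upstream and 33.0 kb downstream of the start. The 2 upstream windows are those shared with Cebpg (chr7:35831441-35841522, minus strand), and they lay nearer to the start of Cebpg, 20.3 and 24.6 kb away.

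Cebpg itself had 6 windows. Its own-start summits lay 141 bp upstream of the outermost start and 725 bp downstream of it, the latter in a UTR and 162 bp from a second start of the gene. When the start was taken from the RefSeq entry instead, placed on mm9 by matching its sequence, the nearest Cebpg summit was 78 bp upstream. The 2 remaining windows lay at annotated transcript starts of Pepd, the neighbouring prolidase gene, with both summits in introns of that gene.

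Cebpb, the C/EBP gene best known from inflammation and mammary epithelium (chr2:167514415-167515918, plus strand), had 14 windows, the most of the 9 genes. Of protein-coding genes 7.28% had as many or more in their body and flanks, where the median was 4. The own-start summit was 8 bp upstream of the start. The other windows away from starts numbered 11, which 3.27% of genes reached. The share of genes with at least 1 was 71.1%, and all 9 members had at least 1.

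Within 10 kb of the Cebpb start there were 6 windows away from starts, a number that 0.43% of protein-coding genes reached. Of these, 5 lay upstream, at 8985, 5136, 4466, 3420 and 1343 bp, all inside introns of Tmem189, a gene annotated across this stretch, and the sixth lay 9088 bp downstream in an intron of the non-coding gene A530013C23Rik. The window at 1343 bp missed the 1 kb region around the start by 94 bp. Of the remaining windows, 2 lay at the starts of Tmem189 and Gm14320, and the others were 16.4, 29.2 and 39.5 kb upstream and 20.1 and 42.2 kb downstream.

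Cebpd, the acute-phase member (chr16:15887379-15888559, plus strand), had 7 windows, and 4 of them lay at its start. Their summits lay 490 and 158 bp upstream and 334 and 851 bp downstream. The 2 upstream windows came from 1 call and overlapped, and the window at 158 bp also overlapped the one at 334 bp. GENCODE vM1 annotates this gene as a pseudogene, so its start was added to the list of starts used here. A window 34.1 kb upstream lay in an intron of Mzt2, and 2 windows from 1 call lay at the start of Mzt2.

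Cebpe, the gene of late neutrophil differentiation (chr14:55329200-55331011, minus strand), had 4 windows. Its own-start window was the farthest of the 10, with a summit 1000 bp upstream, and it no longer counted as an own-start window when 500 bp was used. One other window lay 10.6 kb downstream of the start. The remaining 2 lay at the starts of Acin1 and 1700123O20Rik.

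Csf1r, the M-CSF receptor gene (chr18:61265226-61291803, plus strand, 4 annotated starts), had 7 windows and none within 1 kb of a start. The windows nearest to its outermost start had summits 1337 bp upstream and 3762 bp downstream, the latter in an intron. The upstream window missed the 1 kb region by 88 bp, so that Csf1r became the sixth gene with an own-start window when 2.5 kb was used. Within 10 kb of the start it had 3 windows away from starts, a number reached by 3.45% of protein-coding genes. Further windows lay 15.5 kb upstream, in a coding exon of Hmgxb3 and at the start of Hmgxb3, a neighbouring gene.

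Csf3r, the G-CSF receptor gene (chr4:125701794-125722219, plus strand, 5 annotated starts), had 4 windows. The one nearest to its start was the intergenic window 6625 bp upstream whose words are printed above. No window lay in the 29.2 kb from there to the start of Mrps15, which lies beyond the end of Csf3r. The other windows were at the start and in a UTR of Oscp1.

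Lyz2, the lysozyme gene of macrophages and neutrophils (chr10:116714390-116719377, minus strand), had a single window, 34.6 kb upstream and nearer to the start of Lyz1 than to its own. Mpo, the myeloperoxidase gene of neutrophil precursors (chr11:87607083-87617915, plus strand, 6 annotated starts), had 2, one at the start of A430104N18Rik and one intergenic 35.4 kb upstream. The stretch without a window around the start was 92.7 kb at Lyz2 and 96.9 kb at Mpo. Shifting to the RefSeq starts of Csf3r, Lyz2 and Mpo, which lay 109, 49 and 203 bp from the outermost vM1 starts, left all 3 without an own-start window.

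The base composition around the start differed between the genes with an own-start window and those without one. It did not follow the number of such windows, which was 1 at Cebpb and 4 at Cebpd. The CpG ratio, the number of CpG dinucleotides over that expected from the C and G content of the 1 kb around the start, had a median of 0.549 over protein-coding genes. It was 1.01 at Cebpb, 0.947 at Cebpg, 0.891 at Cebpa and 0.859 at Cebpd, against 0.37 at Cebpe, 0.244 at Csf3r, 0.163 at Csf1r, 0.148 at Mpo and 0.0984 at Lyz2. Of the genes in the highest decile of this ratio, which holds Cebpa, Cebpb and Cebpg, 83% had an own-start window, and in the next decile, which holds Cebpd, 81.4% did. The shares were 25.1% in the decile of Cebpe, 17.5% in that of Csf3r, 11.1% in that of Csf1r and Mpo and 5.59% in that of Lyz2. Thus 8 of the 9 genes had or lacked an own-start window as most genes of their decile did, and Cebpe was the exception. The part of base composition in the split between the C/EBP and the myeloid genes was not tested.

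**Figure D2:**
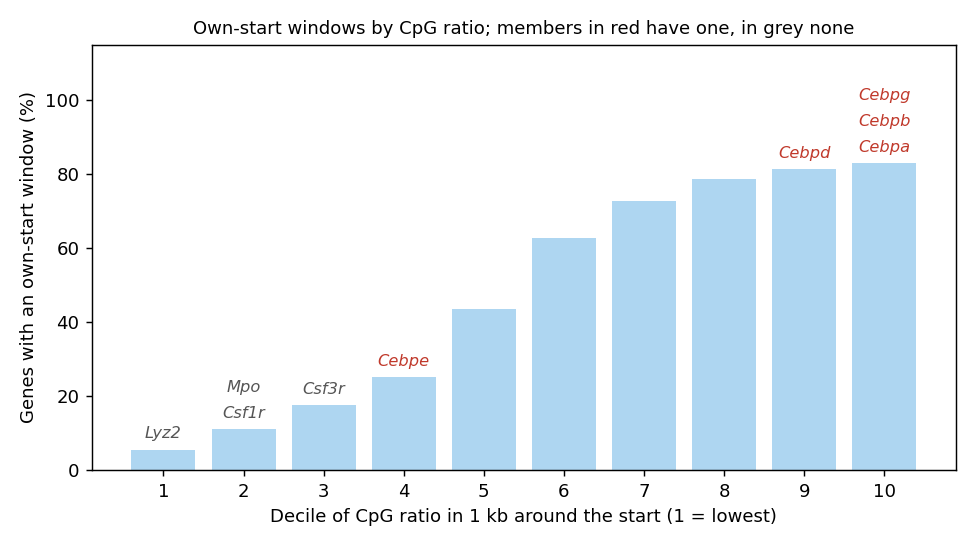
Bars give the percentage of protein-coding genes with a window within 1 kb of an own start (y axis) in each decile of the CpG ratio of 1 kb around the start (x axis, 1 is lowest), and gene names stand over the decile they belong to. Names of the C/EBP genes, which have an own-start window, are in red and names of the myeloid genes, which have none, in grey, and Cebpe is the one red name in a decile with a low share, 25.1%.

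Windows at a start had a median GC content of 59.6% at the members and 59.2% in the whole list, and the other windows had medians of 52.4% and 48.8%. Peak calls with several summits gave 10 of the 23 member windows at a start and 0 of the 25 others. In the whole list such calls gave 33% of windows at a start and 9.95% of the others.

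Peak calls carry consecutive numbers, so that calls absent from the list of 50000 can be counted. The list held 38% of the numbers up to 118153. For each gene the numbers were counted between the nearest listed windows beyond the 50 kb flanks, and since missing calls have no known position, those at the edges may lie inside or outside the flanks. Counted in this way 40% to 58.3% of the calls at the C/EBP genes were in the list. The highest share was at Cebpb (14 of 24), followed by Cebpe and Cebpg (42.9% each), Cebpd (41.7%) and Cebpa (40%). Over their whole chromosomes the share was 42% for Cebpa, Cebpb and Cebpg, 40.5% for Cebpd and 38.2% for Cebpe. Apart from Cebpb, the C/EBP genes were thus near the share of their chromosome. At the myeloid genes the share was 30.8% at Csf3r, 27.3% at Csf1r (6 of 22), 22.2% at Mpo and 14.3% at Lyz2 (1 of 7).

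The order of the genes changed when the edges were left out. Shares were then taken between the first and last listed call of a gene. They were 75% at Cebpe (3 of 4), 71.4% at Cebpd (5 of 7), 66.7% at Cebpa (4 of 6), 63.6% at Cebpb (14 of 22) and 60% at Cebpg (6 of 10). The myeloid values were 57.1% at Csf3r (4 of 7), 50% at Csf1r (6 of 12) and 40% at Mpo (2 of 5). Both ends of such a stretch are listed calls by definition, which raises the share most where few calls were numbered. Lyz2 had 1 listed call, so that it has no such share. At Csf1r 10 of the 16 missing calls lay at the edges and at Lyz2 all 6 did. The shares at single genes therefore rest in part on calls whose place is unknown.

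Lyz2 and Mpo lie on chromosomes where fewer calls were in the list, 27.7% on chromosome 10 and 30.6% on chromosome 11, against 42% for Csf3r on chromosome 4 and 41.6% for Csf1r on chromosome 18. Within the stretch around the start that held no window, 4 numbered calls were missing at Lyz2, 2 at Mpo, 2 at Csf3r and 1 at Csf1r. At Lyz2 and Mpo this stretch ran past the downstream flank. The positions of these missing calls are not known, so a weaker call at one of these starts cannot be told apart from no call.

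**Figure D3:**
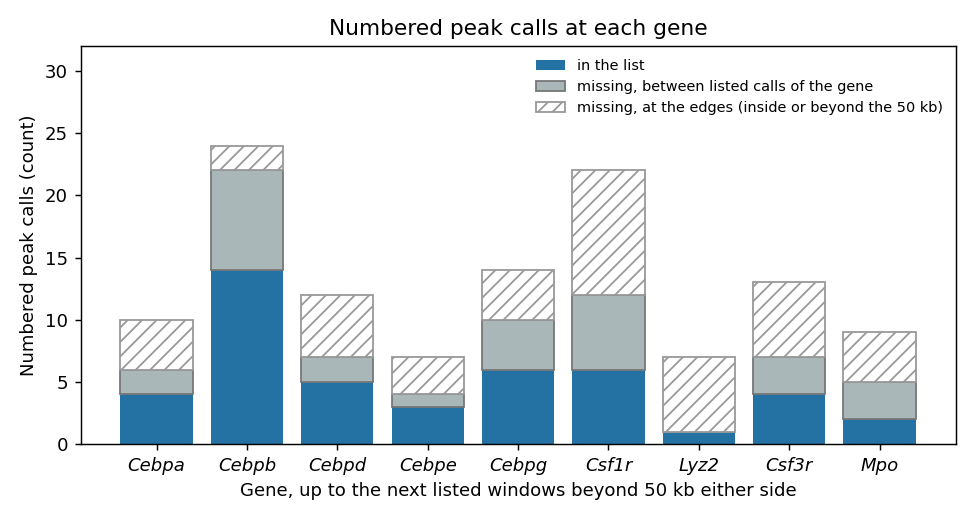
Bars count the numbered peak calls between the nearest listed windows beyond the 50 kb flanks of each gene (y axis), split into calls in the list (blue), calls missing between listed calls of the gene (grey) and calls missing at the edges, which may lie inside or beyond the flanks (hatched). Blue makes up 14 of 24 calls at Cebpb and 1 of 7 at Lyz2, where the other 6 are all hatched.

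The words of the factors were then counted in the members' windows, on both strands. The C/EBP word TTGCNNAA occurred in 8 of the 48 windows. Of the 23 windows at a start 3 held it, against 13.9% of all windows at a start. Of the 25 other windows 5 held it, against 18.7% of all other windows. The member shares, 13% and 20%, are near these backgrounds. One of the 10 own-start windows held the word, at Cebpd, 26 bp from the summit.

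The remaining C/EBP words lay 9.0 kb upstream of Cebpb, 34.1 kb upstream of Cebpd, 15.5 kb upstream of Csf1r, in both windows at the start of Hmgxb3, which share one word, at Csf3r and 35.4 kb upstream of Mpo. The palindrome TTGCGCAA, the ideal site of a C/EBP dimer, was found in none of the 48 windows and in 0.182% of all windows. The composite TGATGCAA, a site of C/EBP with ATF4, was likewise found in none, against 1.36% of all windows. Both words are so rare that nothing can be read from their absence in 48 windows.

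The PU.1 word GAGGAAGT occurred in 3 member windows. At a start the count was 1 of 23, the own-start window of Cebpe, 74 bp from the summit, against 4.1% of all windows at a start. Away from starts it was 2 of 25, the Csf3r window and the shared window 38.2 kb upstream of Cebpa, against 4.92% of all other windows. None of the windows at Csf1r, Lyz2 and Mpo held it.

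The word of AP-1, the FOS and JUN dimer (TGANTCA), was the most frequent of the 14 words in the other windows. It occurred in 2 of the 23 windows at a start, against 12.2% in the list, and in 8 of the 25 others, against 31.9% in the list, so that both shares were close to or below the background. None of the 10 own-start windows held it. Of the 11 windows away from starts at Cebpb 6 held it, and the shared window 42.5 kb upstream of Cebpa and a Pepd start window of Cebpg brought the number at these 3 genes to 8. At the myeloid genes 2 windows held it, one in the Hmgxb3 exon downstream of Csf1r and one at Mpo.

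The 3 windows in which the middle of the AP-1 word lay within 50 bp of the summit are shown to place it in its sequence. They were chosen after the positions had been seen. Each stretch is centred on the summit, on the plus strand, with the word in capitals, and they lie 42.5 kb upstream of Cebpa, 39.5 kb upstream of Cebpb and 9.1 kb downstream of the Cebpb start.
Cebpa chr7:35861779-35861899: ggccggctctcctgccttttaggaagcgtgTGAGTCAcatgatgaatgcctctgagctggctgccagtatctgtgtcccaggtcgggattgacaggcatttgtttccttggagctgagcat
Cebpb chr2:167474883-167475003: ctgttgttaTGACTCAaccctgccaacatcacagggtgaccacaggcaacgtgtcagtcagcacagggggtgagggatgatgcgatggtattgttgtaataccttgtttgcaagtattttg
Cebpb chr2:167523443-167523563: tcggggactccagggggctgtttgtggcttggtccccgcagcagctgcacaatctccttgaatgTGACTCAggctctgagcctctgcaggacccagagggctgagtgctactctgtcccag

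In these windows the middle of the word lay 27 and 48 bp before the summit and 7 bp after it. In the remaining 5 other windows of the C/EBP genes and Csf1r with this word it lay from 85 to 166 bp from the summit.

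**Figure D4:**
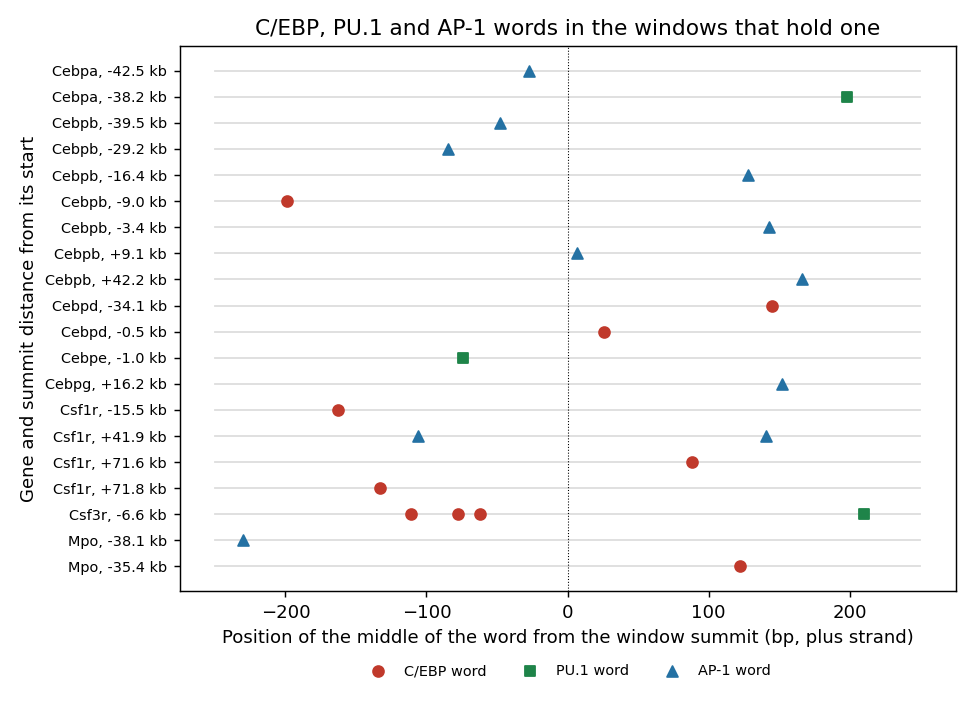
Each row is 1 member window that holds a C/EBP, PU.1 or AP-1 word, named by gene and distance of the summit from the start, and symbols mark the middle of each word relative to the summit (x axis, bp). The Csf3r row is the one with 3 C/EBP words and a PU.1 word, and 6 of the Cebpb rows hold an AP-1 word.

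Among the other words the RUNX word TGTGGTT occurred in 5 of the 25 windows away from starts (20%, against 13.8% in the list). They were the windows 5.95 and 1.34 kb upstream of Csf1r, the one 35.4 kb upstream of Mpo, the shared window 38.2 kb upstream of Cebpa and the one 33.0 kb downstream of Cebpa. At a start the RUNX word occurred in 1 of 23 windows, an own-start window of Cebpd (4.35%, against 6.83%). The SP/KLF word GGGGCGGG occurred in 5 of the 23 windows at a start (21.7%, against 29.1%), of which 3 were own-start windows, at Cebpb, Cebpd and Cebpg. The IRF word occurred in 2 windows at a start, both own-start windows, at Cebpd and Cebpg (8.7%, against 5.11%), and in none of the others (6.09% in the list). The E-box CACGTG occurred in 2 windows at a start, one of them at Cebpa, and in 1 other (12.7% and 8.55% in the list), and the ETS word CCGGAAGT in 1 window at a start, that of Acin1 (6.59%). Words of TEAD, NFI, NF-kB and the cAMP response element were found in none of the 48 windows. Their shares in the list were 5.19%, 1.39%, 0.797% and 2.82% at starts and 9.22%, 2.26%, 0.936% and 0.649% elsewhere.

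Other genes of the pathway were described in the same way. Of 8 partners and regulators of C/EBP proteins 7 had an own-start window (87.5%), and genes with their CpG ratios had one in 70.4% on average. Their median number of windows was 8.5, against 4 over all protein-coding genes. Atf3 had 17 windows, Trib3, a binding partner of ATF4, 14 and Atf4 10, while Batf, an AP-1 factor of lymphocytes, had no own-start window. All 8 myeloid transcription factor genes with a protein-coding model had one, against 63.2% from CpG ratios, and their median was 9 windows. Among them Runx1 had 43 windows, a number that 0.0224% of genes reached, Sfpi1, the gene of PU.1, 14 and Zeb2 11. Runx1 (chr16:92601712-92826311) and Zeb2 (chr2:44839154-44972915) are long genes, and these counts were not adjusted for gene length.

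Lists of effector, cytokine and receptor genes had own-start windows at lower shares than the partner and transcription factor lists. Of these lists only that of granule genes did not exceed its share from CpG ratios, and it lay near that share. Of 12 neutrophil granule genes 2 had an own-start window, Mmp9 and Prtn3 (16.7%, against 19.7% from CpG ratios). Of 15 monocyte and macrophage genes 4 had one (26.7%, against 18.9%). Among those 4, Cd14, the lipopolysaccharide co-receptor, had 13 windows, Fcer1g 12 and Cd68 8. Genes of this list without an own-start window could have as many, with 13 each at Fcgr3 and Ncf1 and 12 at Cx3cr1. Myeloid cytokines and their receptors had an own-start window in 7 of 11 genes (63.6%, against 46.2%). Among those 7, Il34, a second ligand of the M-CSF receptor, had 17 windows, Il6ra 14 and Csf1 9. Csf2, Csf2rb, Flt3 and Kit had no own-start window, although Flt3 had 15 windows in its body and flanks. Of 7 acute-phase and inflammatory C/EBP target genes 3 had one (42.9%, against 22.2%), namely Socs3, Orm1 and Ptgs2, and Saa3, Hp, Il1b and Ccl2 had none. The median number of windows was 5 in the granule, monocyte and cytokine lists and 6 in the acute-phase list.

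**Figure D5:**
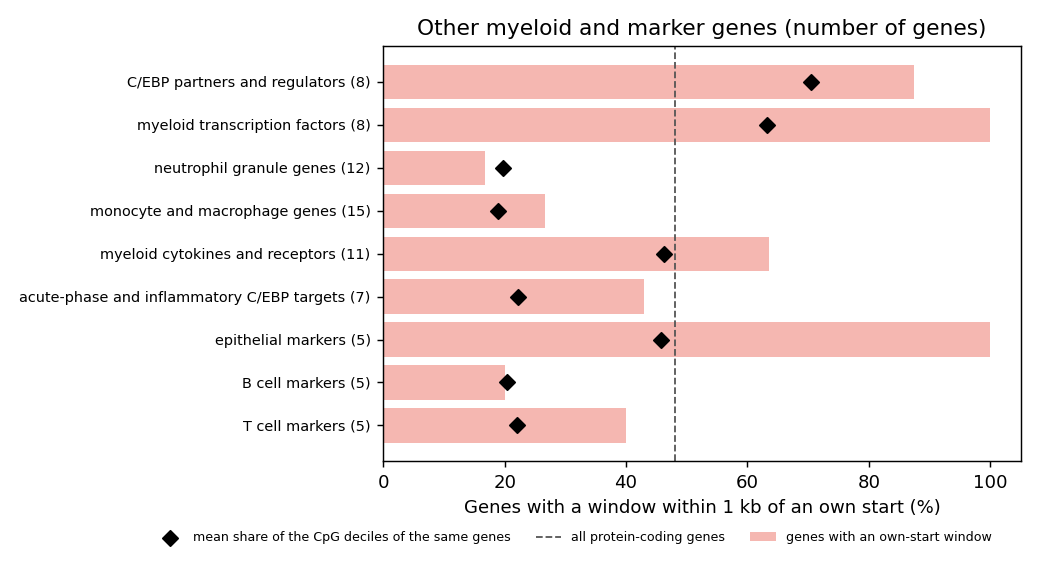
For every gene list the bar shows what percentage of its genes had an own-start window (x axis), and parentheses hold the number of genes. Diamonds give the mean share of the CpG deciles of the same genes and the dashed line the share of all protein-coding genes, 48.1%. The transcription factor list is at 100% and the granule gene list at 16.7%.

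Markers of the cells in the mixture were counted in the same way. All 5 epithelial marker genes had an own-start window, against 45.8% from CpG ratios, as had 1 of 5 B cell marker genes (Cd79a) and 2 of 5 T cell marker genes (Cd3e and Lck), against 20.4% and 22%. The B cell share, 20%, was near its background. Myeloid cells are usually a minority of the leukocytes of the spleen. Because the list holds no value per group, epithelial 4T1 cells and splenocytes cannot be told apart as the source of the member windows.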

How the data were processed

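The authors, per the study's methods, aligned adapter-trimmed read pairs to mm9 (Bowtie2 2.1.0), filtered them for quality, duplicates (Picard 1.79) and mitochondrial origin, and called summits with MACS2 (version not given in the sources used here) on aggregated cells of one condition, which differs from the pooled reading of the peak names used here. The deposited values used here are the start and end positions of 500 bp windows with a peak name. No score, count or p-value accompanied them, read depth was not analysed here, and 0 per-sample columns were set aside.

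The list was treated as 1 pooled sample, so no test was run. Windows were assigned by an overlap of at least 1 bp with Python 3.11.15, sequence was read with pysam 0.24.0 and figures were drawn with matplotlib 3.10.9. The 14 words were searched on both strands, and those of 10 or more letters are named only. Positions of words are distances from the summit to the middle of a match on the plus strand. The scripts' counting was tested on simulated data.

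Named genes are all 9 members and, per list, up to 3 genes with an own-start window and the most windows, and genes without one where 5 or fewer. Members and lists were chosen with earlier results of these data known. The words CCAAT and TATAAA and the AP-1 sequences were chosen after the data were seen, as were the genes named beyond this rule. RefSeq starts came from a table of build GRCm38.p6, in which 6 of the 9 members matched. Cebpd, Cebpe and Csf1r had no start there, so the check of own-start windows against RefSeq does not cover them. Gfi1 has no protein-coding model in vM1. Alternatives covered flank, promoter distance, starts, merging and words.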

Additional observations from a re-analysis of the deposited data

How the results depend on the processing

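No paired analysis was possible because the windows form 1 pooled list and no result comes from a test, and for the same reason no replicate could be left out. Counts are given in the order all windows, windows at a start, other windows and windows with a C/EBP word, which were 48, 23, 25 and 8. They were 8, 7, 1 and 0 with the gene body only, 24, 13, 11 and 3 with a flank of 10 kb, 91, 41, 50 and 14 with 100 kb, and 24, 10, 14 and 4 with windows nearest to a member start. With starts of the members only, 10 windows lay at a start and 38 elsewhere. The palindrome and the composite word each gave 0 windows, and TTGCNNAA within 100 bp of the summit gave 3. The other 23 of 44 alternative values lay within 1.5 times the reported ones. The number of members with an own-start window was 4 with 500 bp, where Cebpe dropped out, and 6 with 2.5 kb, where Csf1r was added, so the contrast of 5 C/EBP and 0 myeloid genes depends on that distance. Overlapping windows merged gave 41 windows, and leaving out Lyz2 and Mpo, on chromosomes with fewer calls kept, gave 45. The list limits what an absent window means, since weaker calls are not in it.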
